A study of Rattus norvegicus with 6 samples.

Results

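Neutrophils carry their killing proteins in granules that are filled in a fixed sequence while the cell matures in the bone marrow, and the genes for these proteins were followed here in RNA of rat tail discs. The members were the 10 genes Elane, Prtn3, Mpo, Ctsg, Np4, Camp, Ngp, Ltf, Lcn2 and Cebpe, chosen by symbol for the granule stage they mark, out of 30562 genes in the count table. Np4 stands in the table under 2 identifiers, so that the members occupied 11 entries, of which 9 had enough reads to be tested. The early, azurophil granules form in promyelocytes and hold the peroxidase Mpo, the serine proteases Elane, Prtn3 and Ctsg and the defensins. The specific granules form in the later myelocyte and metamyelocyte stages under the transcription factor Cebpe and hold Camp, Ngp, Ltf and Lcn2. Circulating neutrophils have largely stopped making these transcripts while they still carry the proteins, so that azurophil granule mRNA is known as a mark of marrow precursors more than of the mature cells found in inflamed tissue, whereas Lcn2 is also made by chondrocytes, epithelia and other cells under inflammatory signals.

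The study asked how a vesicle that carries an siRNA against Spp1 alters a degenerating disc. By its methods, discs in the tail of 12-week-old male Sprague–Dawley rats were punctured with a needle and injected 24 h later with 10 μL of either PBS or AF-PTK@LEV@SPP1, over an 8-week treatment. AF-PTK@LEV@SPP1 is a liposome fused with bacterial outer membrane vesicles, bears a peptide for the annulus fibrosus (AF) on a linker cut by reactive oxygen species, and was given at 1 mg/kg of siRNA. Each group had 3 libraries, all of genotype WT. The sample records differ from this account, naming a control without treatment, 14 days of treatment and macrophages sorted by F4/80 and CD11b from discs of mice, and the study's methods were followed here for the names of the groups. PBS replicates 1, 2 and 3 held 17942989, 16565291 and 17489851 counts. The libraries that carry the AF-PTK@LEV@SPP1 label, called labelled replicates 1, 2 and 3 from here on, held 17074981, 15560728 and 17855184. Levels are given as normalized CPM, the usual counts-per-megaread scale with effective library sizes set by edgeR, and 3 reads, the level taken as the floor of detection, corresponded to 0.154 to 0.193 CPM. Floors and intervals cover counting error only.

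PBS replicates 2 and 3 were nearly identical in their counts. The variance between their counts, over 14393 genes, was 1.33 times that of counting noise, and 16 genes (0.111%) differed, while the 5 other pairs within a group had ratios of 51.3 to 107. The pair was therefore counted as 1 sample, which left n = 2 distinct samples for PBS and n = 3 for the labelled libraries, and a two-sided exact permutation test on these 5 samples cannot give a p below 0.1. A fit that kept all 6 libraries apart is given beside it where it is quoted.

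Spp1, the target of the siRNA, stood at 8114, 4408 and 4414 CPM in PBS and at 8047, 6893 and 8451 CPM in the labelled libraries. The target thus showed no drop in the libraries said to be treated (log2 fold change 0.31, standard error 0.37, edgeR adjusted p = 0.628), and every direction below is relative to the labels. The study reports Il1b and Mmp9 as strongly lower in treated discs. Both were lower in the labelled libraries here, at log2 fold changes of -2.61 and -1.66. By the rule for a call given below, only Mmp9 was called. The edgeR adjusted p of Il1b was 0.0743, and 0.0187 with all 6 libraries kept. The volcano plot of the study used another rule, with a larger fold-change cutoff that Il1b exceeded here and Mmp9 did not. The labelled tissue was checked with 12 disc genes, none of which was at the floor throughout the 6 libraries. Col1a1, the chain of the fibrillar collagen of the annulus, was the most abundant of these genes, at 31890, 44700 and 45020 CPM in PBS and 64020, 45890 and 51200 CPM in the labelled libraries. Tbxt, a marker of notochord-derived cells of the nucleus pulposus, had 142, 17.4 and 17.3 CPM in PBS and 756, 308 and 332 CPM in the labelled libraries. Cd68, a lysosomal protein of macrophages, had 150, 112 and 116 CPM in PBS and 28.5, 42.1 and 30.9 CPM in the labelled libraries, beside the far higher counts of collagen. Transcripts of disc matrix were thus abundant in libraries that the records describe as sorted macrophages.

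Elane encodes neutrophil elastase, the protease that degrades elastin and bacterial proteins. It lies on chromosome 7 from 9817252 to 9819100 on the minus strand in the coordinates of the count table, whose build is not given in the sources used here. Elane had 10.8 CPM in PBS replicate 1, 0.321 in replicate 2 and 0.427 in replicate 3, against 3.52, 29.5 and 34.4 CPM in labelled replicates 1, 2 and 3. In reads, PBS held 210, 5 and 7 and the labelled libraries held 60, 490 and 605. Labelled replicates 2 and 3 were thus high, PBS replicate 1 and labelled replicate 1 lay between, and the near-identical PBS pair was low, so that the groups overlapped. In bulk tissue such as this, fewer cells of a type and less RNA per cell cannot be told apart.

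Prtn3, proteinase 3, is the neighbour of Elane, separated from it by 3021 bases on the same strand. Prtn3 had 4.77, 0.0643 and 0.427 CPM in PBS and 0.470, 8.50 and 13.6 CPM in the labelled libraries. These levels rest on 93, 1 and 7 reads in PBS and on 8, 141 and 238 reads in the labelled libraries, and the 1 read in PBS replicate 2 is under the floor. The same libraries were high and low as for Elane, and the groups overlapped again. The 5′ end of Prtn3 overlaps Plppr3 on the opposite strand, and the use of strand in the counting is not given in the sources used here, but Plppr3 itself had 74, 48 and 48 reads in PBS and 40, 30 and 37 in the labelled libraries.

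Ctsg, the chymotrypsin-like cathepsin G of the same granules, lies on chromosome 15 from 29931003 to 29937353. It had 27.9, 0.514 and 0.793 CPM in PBS and 8.81, 67.5 and 92.5 CPM in the labelled libraries. Mpo makes hypochlorous acid from hydrogen peroxide and lies on chromosome 10 from 72594661 to 72604819. It had 32.1, 0.450 and 0.732 CPM in PBS and 22.2, 140 and 188 CPM in the labelled libraries. For both genes labelled replicates 2 and 3 stood above every other library, PBS replicates 2 and 3 stood below every other library, and for Mpo the gap between PBS replicate 1 and labelled replicate 1 was 1.45-fold.

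Np4 encodes an alpha-defensin, a small peptide that breaks bacterial membranes. The entry with reads, ENSRNOG00000069755, spans chromosome 16 from 70342529 to 70497202 on the minus strand. It had 145, 2.51 and 2.20 CPM in PBS and 55.8, 456 and 613 CPM in the labelled libraries, in the same order of libraries as the proteases. That span contains other defensin genes, among them Defa5 with 1422, 25 and 39 reads in PBS and 427, 3693 and 6021 in the labelled libraries, so that reads could be split among near-identical copies and the level of Np4 itself is uncertain. The other entry named Np4, ENSRNOG00000028707, lies inside the first and had 5 reads in all 6 libraries together, and it was not tested.

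Camp, the precursor of the cathelicidin peptide, is a specific granule gene on chromosome 8 from 109841729 to 109843543. Camp had 40.7, 1.09 and 1.77 CPM in PBS and 17.9, 168 and 218 CPM in the labelled libraries. Ngp, a cystatin-related neutrophilic granule protein, lies on the same chromosome from 110394203 to 110397570. Ngp had 70.3, 3.34 and 2.93 CPM in PBS and 26.1, 381 and 449 CPM in the labelled libraries. These genes of the later stage followed the same libraries as the azurophil genes, with labelled replicates 2 and 3 high and the PBS pair low.

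Ltf, lactoferrin, the iron-binding protein of the specific granules, was not detectable at this depth in 5 libraries with 0 reads and had 1 read in PBS replicate 1. It lies on chromosome 8 from 110999948 to 111022795, and a level above 0.154 to 0.193 CPM would have passed the floor. Lcn2, lipocalin 2, which binds bacterial siderophores, went another way from all other members. It lies on chromosome 3 from 15680687 to 15684095 and had 25.8, 283 and 288 CPM in PBS and 10.1, 83.3 and 108 CPM in the labelled libraries. The PBS pair, low for every other tested member, was here the highest of all, while PBS replicate 1 and labelled replicate 1 were low.

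Cebpe, the factor that drives the step from promyelocyte to myelocyte and the specific granule genes, lies on chromosome 15 from 28169704 to 28171814. Cebpe had 3.80, 0.643 and 0.610 CPM in PBS and 0.764, 12.5 and 14.0 CPM in the labelled libraries. The factor was thus high in labelled replicates 2 and 3, and labelled replicate 1 lay close to the PBS pair, at 13 reads against 10 and 10.

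**Figure D1:**
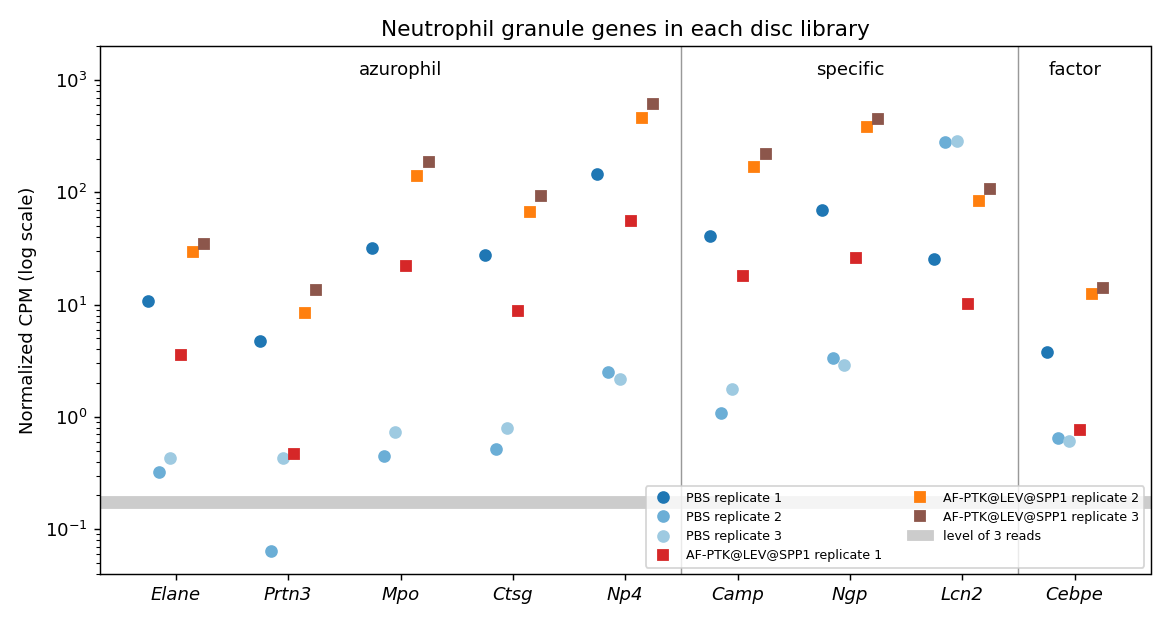
Normalized CPM on a log axis (vertical) of the 9 members with enough reads to test (horizontal, by granule stage), with 1 point for each of the 3 PBS libraries (circles) and each labelled AF-PTK@LEV@SPP1 library (squares). The grey band is the level of 3 reads, 0.154 to 0.193 CPM. In 8 of the 9 genes labelled replicate 3 is highest and PBS replicates 2 and 3 are lowest, while Lcn2 has 283 and 288 CPM in that pair.

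None of the 9 tested members passed the test between the groups (0 of 9 by edgeR's quasi-likelihood test, where a call needed both a Benjamini-Hochberg adjusted p under 0.05 and more than a doubling or halving), against 2.91% of all 15537 genes tested. At an unadjusted p under 0.05 the count was 0 as well, against 3941 of all genes tested by edgeR, and DESeq2 and limma-voom on the same 5 samples called 0 and 0. With all 6 libraries kept the count was 0 of 9, against 8.83% of all genes tested. When the replicate number was also fitted as a block it was 1 of 9, Lcn2 (edgeR adjusted p = 0.0316), beside 600 genes in the whole table. The numbers gave no sign of pairing, as described below. The levels of all 9 members overlapped between PBS and the labelled libraries, whereas for 45.8% of all genes tested the 5 distinct samples did not overlap. Each of the members other than Lcn2 nevertheless had a positive log2 fold change. That of Ngp was 2.96 (standard error 1.70, edgeR adjusted p = 0.330), from 36.7 ± 47.5 CPM (SD, n = 2) in PBS and 286 ± 227 CPM (SD, n = 3) in the labelled libraries. That of Mpo was 2.84 (standard error 1.67, edgeR adjusted p = 0.339), from 16.4 ± 22.3 CPM (SD, n = 2) and 117 ± 85.2 CPM (SD, n = 3). The SD was as large as the mean or close to it in both groups, and the two-sided exact permutation p was 0.3 for both genes. For Camp, Np4, Cebpe, Elane, Ctsg and Prtn3 the log2 fold changes were 2.68, 2.34, 2.06, 2.04, 1.99 and 1.61, with standard errors between 1.34 and 1.76 and edgeR adjusted p between 0.351 and 0.557. Lcn2 had a log2 fold change of -1.22 (standard error 1.23, edgeR adjusted p = 0.568), from 156 ± 184 CPM (SD, n = 2) in PBS and 67.2 ± 51.0 CPM (SD, n = 3) in the labelled libraries. Without PBS replicate 1 the log2 fold changes of the 8 other members ranged from 3.83 for Cebpe to 7.58 for Mpo, 6 members had an unadjusted p under 0.05 and 0 were called by edgeR, beside 3570 and 280 genes in the whole table. The PBS pair is then a single sample, which edgeR takes to vary as the labelled libraries do. With PBS replicates 2 and 3 both left out they ranged from 0.64 for Prtn3 to 2.01 for Ngp, and that of Lcn2 turned to 1.37, again with 1 sample for PBS.

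Within each group these genes spanned a wider fold range than the fold change between the groups. PBS replicate 1 exceeded the mean of PBS replicates 2 and 3 by 61.7-fold for Np4, 54.3-fold for Mpo and 42.7-fold for Ctsg. The same ratio was 28.8 for Elane, 28.4 for Camp, 22.4 for Ngp and 19.4 for Prtn3, and 6.06 for Cebpe, and Lcn2 was 11.1-fold higher in the pair instead. Among the labelled libraries the highest level was between 8.47-fold (Mpo) and 28.8-fold (Prtn3) above the lowest, Lcn2 included at 10.7-fold. PBS replicate 1 stood at least 8-fold above the mean of the pair, a size chosen after the values were seen, for 7 of 9 members, against 2.25% of all genes tested, and the step of Lcn2 in the other direction is not counted there. Among the labelled libraries the highest level was at least 8-fold above the lowest for 9 of 9, against 2.75% of all genes tested, and both steps were present for 7 of 9, against 0.843%.

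The order of the libraries was also shared. From high to low it ran labelled replicate 3, labelled replicate 2, PBS replicate 1, labelled replicate 1 and the PBS pair in 8 of 9 members, a sequence shown by 238 of 15537 tested genes (1.53%). Labelled replicates 2 and 3, at the top of this order, were close to each other, with ratios from 1.11 for Cebpe to 1.59 for Prtn3. The order was noticed in the members themselves and is a description of these 5 samples. Azurophil and specific granule genes on chromosomes 7, 8, 10, 15 and 16 took part in it alike.

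Whether the stages moved apart can be read from ratios of gene pairs within a library, in which library size and gene length cancel when the same pair is compared between libraries. For every 100 reads of Ngp, Camp had 57.8, 32.7 and 60.4 reads in PBS and 68.5, 44.2 and 48.4 in the labelled libraries. The 95% Clopper-Pearson interval of Camp was 17.7 to 57.5 in PBS replicate 2 and 42.2 to 46.2 in labelled replicate 2. Thus the pair of specific granule genes kept its ratio within 2.10-fold, while the level of either gene moved over 100-fold between libraries. Elane, of the early stage, had 15.3, 9.62 and 14.6 reads for every 100 of Ngp in PBS and 13.5, 7.74 and 7.66 in the labelled libraries. Ctsg had 39.7, 15.4 and 27.1 in PBS and 33.7, 17.7 and 20.6 in the labelled libraries. Elane and Ctsg were lower relative to Ngp in labelled replicates 2 and 3, where the granule genes were most abundant, than in PBS replicate 1 and labelled replicate 1. Prtn3 had 6.78, 1.92 and 14.6 reads for every 100 of Ngp in PBS and 1.80, 2.23 and 3.01 in the labelled libraries. Prtn3 was thus lowest in labelled replicate 1, where it rests on 8 reads with an interval of 0.771 to 3.57, and did not share the pattern of Elane and Ctsg. Mpo varied more than Elane and Ctsg did and was highest in labelled replicate 1. It had 45.7, 13.5 and 25 reads in PBS and 84.7, 36.8 and 41.7 in the labelled libraries. Np4 had 206, 75.0 and 75.0 reads in PBS and 213, 120 and 136 in the labelled libraries. Cebpe had 5.40, 19.2 and 20.8 reads in PBS, the last of these with an interval of 9.40 to 41.7, and 2.92, 3.29 and 3.10 in the labelled libraries, so that it stood higher relative to Ngp in the PBS pair. Lcn2 had 36.6 reads for every 100 of Ngp in PBS replicate 1, 8452 in replicate 2 and 9829 in replicate 3. In the labelled libraries it had 38.7, 21.9 and 24.1. In 4 libraries Lcn2 thus moved with Ngp within 1.77-fold, and in the near-identical PBS pair it did not.

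**Figure D2:**
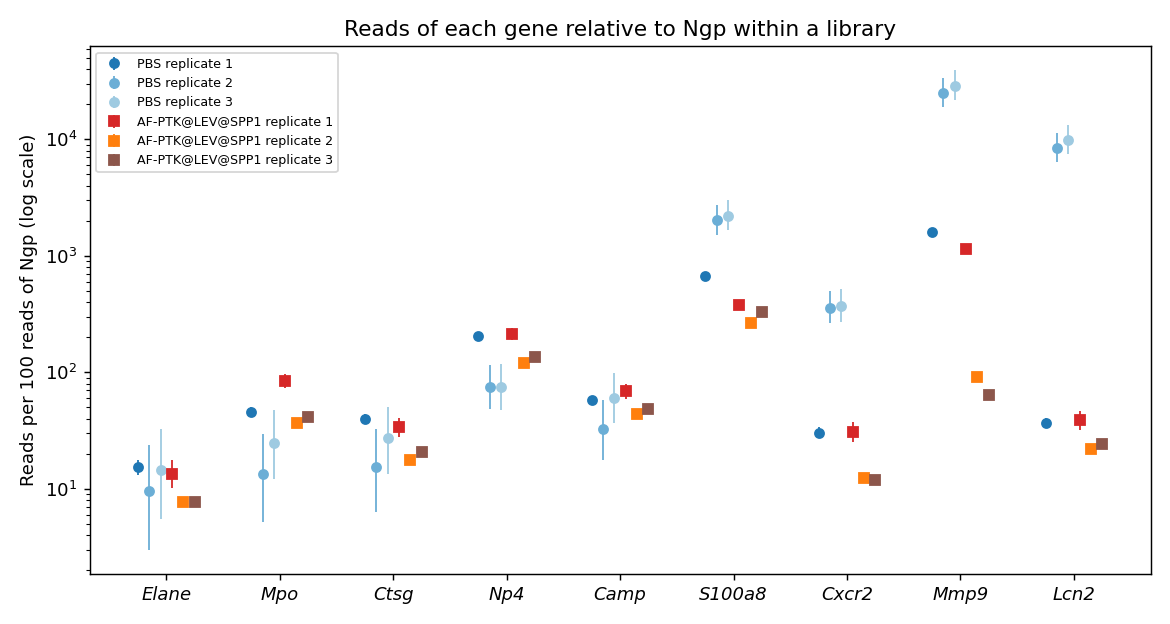
Reads of each gene for every 100 reads of Ngp in the same library (vertical, log axis) for 5 granule members, 3 other neutrophil genes and Lcn2 (horizontal), with 1 point per library and bars for the 95% Clopper-Pearson interval, which covers counting error only. Camp lies between 32.7 and 68.5 in all 6 libraries, whereas Lcn2 lies between 21.9 and 38.7 in 4 libraries and at 8452 and 9829 in PBS replicates 2 and 3.

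The balance of the stages was summed for the genes Elane, Mpo, Prtn3 and Ctsg against Camp, Ngp, Ltf and Lcn2, as a value to compare between libraries and not between genes. The early genes together had 75.6, 1.35 and 2.38 CPM in PBS and 35.0, 246 and 328 CPM in the labelled libraries. On the log2 scale the ratio of early to late was -0.86, -7.73 and -6.94 in PBS and -0.63, -1.36 and -1.24 in the labelled libraries. The low values of PBS replicates 2 and 3 came with Lcn2. Without it, a choice made after seeing the data, the log2 ratio was -0.56, -1.72 and -0.98 in PBS and -0.33, -1.16 and -1.02 in the labelled libraries. Put as CPM of the early genes for every 100 CPM of the late ones, this was 68.0, 30.4 and 50.6 in PBS and 79.3, 44.7 and 49.2 in the labelled libraries, and the groups overlapped.

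Other genes of the azurophil granules were read from a list of 26, of which 19 were in the table and 13 were tested. Of these 13, 0 were called higher and 2 were called lower in the labelled libraries, and the median log2 fold change was 0.19, against 0.05 over all genes tested. Lyz2, lysozyme, was the most abundant of the list, at 1831, 1266 and 1246 CPM in PBS and 271, 1241 and 1400 CPM in the labelled libraries, and macrophages make it too. The defensin Defa5 had 73.0, 1.61 and 2.38 CPM in PBS and 25.1, 222 and 343 CPM in the labelled libraries, as Np4 did. Ms4a3, a membrane protein of granulocyte and monocyte progenitors, had 5.95, 0.257 and 0.0610 CPM in PBS and 2.58, 17.5 and 21.8 CPM in the labelled libraries. Defa5 and Ms4a3 thus had the members' order of libraries, as 4 of the 13 tested genes of the list did and Lyz2 did not, and Defa6, Defa8, Defa24 and Defal1 were at or under the floor in all 6 libraries.

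The 2 azurophil list genes called lower are also lysosomal genes of other cells. Ctsc is the dipeptidyl peptidase that removes the propeptide of Elane, Prtn3 and Ctsg and so activates them. Ctsc had 294, 302 and 304 CPM in PBS and 51.2, 88.6 and 69.2 CPM in the labelled libraries, without overlap. Its log2 fold change was -2.11 (standard error 0.24, edgeR adjusted p = 0.0255; exact permutation p = 0.1, the smallest possible). Gusb, the lysosomal beta-glucuronidase, had 177, 116 and 116 CPM in PBS and 54.7, 69.6 and 55.4 CPM in the labelled libraries, a log2 fold change of -1.30 (standard error 0.22, edgeR adjusted p = 0.0476). The activating enzyme was therefore lower in all 3 labelled libraries, including the 2 in which the proteases it activates were most abundant. Without labelled replicate 2 or 3, edgeR called 0 genes in the whole table (3109 and 2699 genes at an unadjusted p under 0.05), and without PBS replicate 1 neither Ctsc nor Gusb was called. Over the 6 libraries left out one by one, the adjusted p of Ctsc was 0.0255 to 0.148 and that of Gusb 0.0472 to 0.186, and Gusb also lost its call without labelled replicate 1, with limma-voom and with library totals alone. The replicate block, with all 6 libraries kept, ended the call of Gusb as well (edgeR adjusted p = 0.0709).

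Of 21 further specific granule genes 17 were in the table and 15 were tested, with 0 called in either direction by edgeR, 5 at an unadjusted p under 0.05, 4 called by DESeq2 and 0 by limma-voom. The median log2 fold change was 1.90, against 0.05 over all genes tested. Mmp8, neutrophil collagenase, had 77.5, 9.90 and 8.30 CPM in PBS and 26.0, 236 and 249 CPM in the labelled libraries. Olfm4, olfactomedin 4, which marks a subset of neutrophils, had 56.0, 4.37 and 3.90 CPM in PBS and 11.2, 189 and 136 CPM in the labelled libraries. Cd177, a surface protein stored in specific granules, had 11.3, 1.74 and 1.89 CPM in PBS and 3.52, 49.8 and 60.2 CPM in the labelled libraries. All of them were lowest in the PBS pair and highest in labelled replicates 2 and 3, with 6.22-fold (Cd177) to 13.5-fold (Olfm4) between PBS replicate 1 and the pair. These 3 are not the whole list, of which 6 of 15 tested genes had the members' order of libraries and 10 a positive log2 fold change, while Orm1, Dhrs9, Hp, Cyba and Cybb had a negative one. Orm1, an acute-phase protein also made in liver, stood at 24.2, 47.8 and 49.0 CPM in PBS and 0.470, 4.88 and 3.64 CPM in the labelled libraries (log2 fold change -3.61, edgeR adjusted p = 0.0807). Stfa2l1, a stefin protease inhibitor, had 2.21, 0.514 and 0.732 CPM in PBS and 3.82, 15.2 and 9.62 CPM in the labelled libraries (log2 fold change 2.78, edgeR adjusted p = 0.125). Cybb, the catalytic subunit of the phagocyte oxidase, was the most abundant of the list, at 212, 135 and 140 CPM in PBS and 51.0, 195 and 184 CPM in the labelled libraries.

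The last granules to form hold gelatinase. In the list of gelatinase and secretory granule genes 10 were tested, 0 were called higher and 1 lower, and the median log2 fold change was -0.35. The gene called was Mmp9, gelatinase B, with 1121, 834 and 842 CPM in PBS and 300, 347 and 287 CPM in the labelled libraries. Its log2 fold change was -1.66 (standard error 0.19, edgeR adjusted p = 0.0260), lower in 3 of 3 labelled libraries, and the call was lost without PBS replicate 1 and without any single labelled library (adjusted p 0.0261 to 0.150 over the libraries left out). For every 100 reads of Ngp, Mmp9 had 26780 in the summed PBS pair and 63.8 to 1593 in the 4 other libraries, so that Mmp9 itself did not follow the genes of the earlier granules. In its list 3 of the 10 genes had the members' order of libraries and in 9 of the 10 PBS replicate 1 exceeded the mean of the PBS pair. Fpr1, a receptor for formyl peptides of bacteria that is also in the list of the mature neutrophil, had 4.46, 0.643 and 0.549 CPM in PBS and 1.29, 13.9 and 15.8 CPM in the labelled libraries. Mmp9 is also a gene of osteoclasts and is itself 1 of the 8 osteoclast markers used here. Of these, 5 were called lower and 0 higher (4 of 7 lower apart from Mmp9), with, Mmp9 included, a median log2 fold change of -2.31, a summed level of 6513, 4236 and 4255 CPM in PBS and 1122, 1103 and 772 CPM in the labelled libraries, Ctsk as the most abundant gene and 0 markers at the floor. The part of osteoclasts in the level of Mmp9 was not tested.

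Genes of the mature neutrophil were read from a list of 23, of which 22 were tested, 0 were called higher and 1 lower, and the median log2 fold change was 0.03. S100a9, a calcium-binding protein of neutrophil cytosol and the most abundant of the list, had 457, 84.9 and 78.3 CPM in PBS and 107, 1059 and 1485 CPM in the labelled libraries. S100a8, its partner, had 475, 67.2 and 64.5 CPM in PBS and 99.0, 1009 and 1488 CPM in the labelled libraries. Both had the members' order of libraries, as 5 of the 22 tested genes of the list did, but with a smaller step in PBS, 7.21-fold for S100a8. Cxcr2, the chemokine receptor through which mature neutrophils are drawn into tissue, had 21.3, 12.02 and 10.9 CPM in PBS and 8.05, 47.2 and 53.8 CPM in the labelled libraries. Csf3r, the receptor for G-CSF, had 16.9, 14.8 and 14.2 CPM in PBS and 5.23, 28.9 and 31.9 CPM in the labelled libraries. In PBS replicate 1 these receptors exceeded the pair by only 1.87-fold and 1.16-fold, where the azurophil genes differed by 19.4-fold to 61.7-fold. Relative to Ngp, the PBS pair therefore held 365 reads of Cxcr2 for every 100, against 11.98 to 30.8 in the 4 other libraries. Monocytes and macrophages also express several genes of this list, and their part was not tested.

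Slpi, which inhibits Elane and Ctsg and is made by neutrophils, macrophages and epithelia, was the 1 mature neutrophil list gene called by edgeR, where 5 had an unadjusted p under 0.05 and DESeq2 called 5. Slpi had 663, 1024 and 1005 CPM in PBS and 4.52, 11.3 and 18.2 CPM in the labelled libraries. Its log2 fold change was -6.22 (standard error 0.65, edgeR adjusted p = 0.0221), it was lower in 3 of 3 labelled libraries, and the adjusted p was 0.0226 to 0.136 with each library left out, above 0.05 without labelled replicate 2 or 3. Il1b, the cytokine interleukin 1 beta, was also lower without overlap but not called, at 34.8, 39.2 and 37.0 CPM in PBS and 1.997, 8.44 and 7.63 CPM in the labelled libraries (log2 fold change -2.61, edgeR adjusted p = 0.0743). Clec4e, Wfdc21 and Lilrb4, at log2 fold changes of -2.55, -3.56 and -1.79, were likewise not called (edgeR adjusted p = 0.0933, 0.0902 and 0.0838). Slpi was thus low in all 3 labelled libraries, of which 2 held the highest levels of the proteases it blocks. Whether the protein products changed was not analysed here.

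Among 18 factors and receptors of myeloid development, all tested, 0 were called higher and 1 lower by edgeR, and the median log2 fold change was 0.04. At an unadjusted p under 0.05 edgeR had 6 of them, while DESeq2 called 6 and limma-voom 2. Klf4, a factor of monocytes and of many other cells, was the most abundant, at 113, 202 and 198 CPM in PBS and 122, 91.3 and 161 CPM in the labelled libraries. Myb, which keeps progenitors dividing, had 11.3, 0.964 and 0.183 CPM in PBS and 3.41, 29.4 and 36.9 CPM in the labelled libraries, in the members' order of libraries, which 1 of the 18 genes had. Gfi1, which works upstream of Cebpe in granulocyte commitment, had 3.23, 0.321 and 0.244 CPM in PBS and 1.88, 6.75 and 5.81 CPM in the labelled libraries. Cebpa, the factor of the earlier steps, had 38.1, 23.8 and 22.2 CPM in PBS and 34.0, 53.3 and 35.4 CPM in the labelled libraries, a far narrower range. Cebpd, a family member raised by inflammatory signals, was the gene called, with 40.6, 52.8 and 50.1 CPM in PBS and 10.7, 8.92 and 13.7 CPM in the labelled libraries. Its log2 fold change was -2.06 (standard error 0.22, edgeR adjusted p = 0.0230), with an adjusted p of 0.0231 to 0.135 over the libraries left out and no call without any single labelled library. In PBS replicates 2 and 3, Cebpd and Lcn2 were thus both at their highest while Cebpe was at its lowest.

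Markers of other marrow lineages also differed between these libraries, and they are given here as whole lists. The 9 tested genes of eosinophils, basophils and mast cells had 0 calls in either direction by edgeR (0 at an unadjusted p under 0.05, 0 by DESeq2 and 0 by limma-voom), a median log2 fold change of 2.73 and a summed level of 156, 21.2 and 21.1 CPM in PBS and 69.4, 1593 and 1173 CPM in the labelled libraries. Prg2, the major basic protein of eosinophil granules and the most abundant of them, had 95.02, 6.56 and 6.89 CPM in PBS and 34.2, 922 and 715 CPM in the labelled libraries. Epx, eosinophil peroxidase, had 30.3, 2.51 and 2.44 CPM in PBS and 18.5, 453 and 271 CPM in the labelled libraries. Prg2 and Epx were thus high and low in the same libraries as the neutrophil genes, except that labelled replicate 2 exceeded labelled replicate 3. Of the 9 tested genes of this list 1 had the members' order of libraries, and in 6 PBS replicate 1 exceeded the mean of the PBS pair. Tpsab1 and Cma1 did not follow this, at 0.616, 0.964 and 0.793 CPM and at 1.18, 1.29 and 1.65 CPM in PBS.

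The 17 erythroid genes had 0 calls by edgeR (4 at an unadjusted p under 0.05, 7 by DESeq2 and 0 by limma-voom), a median log2 fold change of 3.40 and a summed level of 2468, 3227 and 3320 CPM in PBS and 2593, 21600 and 14700 CPM in the labelled libraries, with 0 genes at the floor throughout. Hba-a1, an alpha-globin and the most abundant of them, was not low in the PBS pair, at 2051, 2829 and 2885 CPM in PBS and 2201, 17490 and 12240 CPM in the labelled libraries. The globin, a transcript that circulating reticulocytes still carry, thus did not follow the granule genes in the PBS pair. The 14 genes of B cell precursors had 0 calls by edgeR (1 at an unadjusted p under 0.05, 1 by DESeq2 and 0 by limma-voom), a median log2 fold change of 1.07 and a summed level of 133, 49.2 and 43.6 CPM in PBS and 78.2, 148 and 201 CPM in the labelled libraries, with Ebf1 as the most abundant gene. Rag1, the recombinase of lymphocyte precursors, had 10.8, 0.129 and 0.244 CPM in PBS and 3.05, 11.3 and 19.0 CPM in the labelled libraries. Of the 14 B precursor genes 7 had the members' order of libraries, against 0 of the 17 erythroid and 0 of the 15 proliferation genes. PBS replicate 1 exceeded the mean of the PBS pair in 14 of the 14 B precursor genes, and labelled replicate 1 was the lowest labelled library in 13. The 15 proliferation genes had 0 calls by edgeR (0 at an unadjusted p under 0.05, 0 by DESeq2 and 0 by limma-voom), a median log2 fold change of 0.48 and a summed level of 386, 243 and 241 CPM in PBS and 178, 886 and 603 CPM in the labelled libraries, with Mki67 at the top with 85.7, 46.7 and 46.6 CPM in PBS and 44.9, 361 and 210 CPM in the labelled libraries. What part the amount of marrow or blood in each sample had in the levels of the granule genes was not tested.

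**Figure D3:**
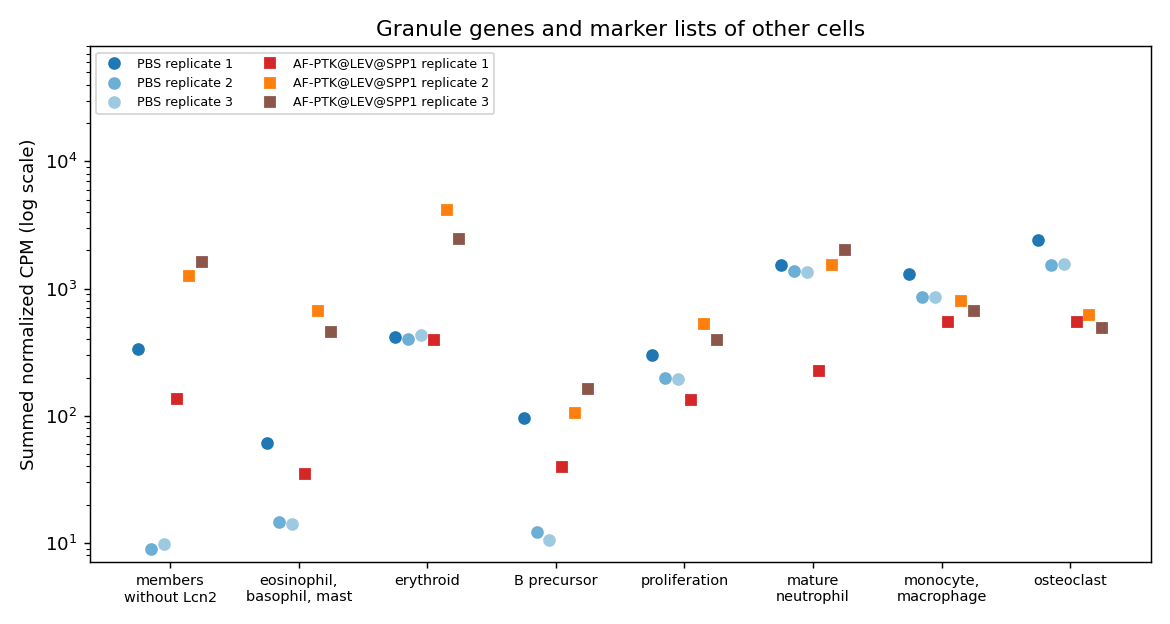
Summed normalized CPM on a log axis (vertical) of the granule members without Lcn2 and of 7 marker lists, each list without its most abundant gene (horizontal), with 1 point for each of the 6 libraries. The granule members run from 8.94 CPM in PBS replicate 2 to 1622 CPM in labelled replicate 3, the B precursor genes from 10.6 to 164 CPM, and the osteoclast genes are lower in the 3 labelled libraries (486 to 618 CPM) than in PBS (1537 to 2428 CPM).

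The genes most like the members outside these lists were ranked by Pearson r with the mean log2 CPM of the azurophil or the specific members over the 5 distinct samples, a description over few points that share 1 low sample. For the azurophil members they were Arhgap15 (r = 0.998), Cdh23, Stfa2l2, Stfa2l3 and LOC689230 (r = 0.997). Stfa2l3, a stefin of the cysteine protease inhibitors, had 20.4, 1.80 and 1.40 CPM in PBS and 9.52, 54.8 and 53.2 CPM in the labelled libraries. For the specific members, Lcn2 among them, they were ENSRNOG00000069049, Jaml, Tf, LOC103692795 and Mgam, with r of 0.997 to 0.999. Jaml, an adhesion molecule of leukocytes that cross epithelia, had 15.8, 7.59 and 6.16 CPM in PBS and 7.99, 33.0 and 38.1 CPM in the labelled libraries. For Lcn2 alone, a choice made after seeing the data, Pcdhb9 came first (r = 0.996) with 3.08, 5.21 and 5.003 CPM in PBS and 2.41, 4.04 and 3.98 CPM in the labelled libraries, and the next genes, Zbtb7b, Zfp800, Nmnat1 and Cyyr1, also spanned far narrower ranges than Lcn2.

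The promoters of the members were searched for letters bound by the families of Cebpe and of other granulocyte factors. RefSeq promoters of GRCr8, each reaching from 250 bases before the gene's start to 50 after it, were matched for 9 of the 10 members, all but Elane. The C/EBP motif TTGCNNAA, on either strand, was in 3 of the 9 promoters, those of Lcn2, Ngp and Np4, and in 10.6% of all 33469 promoters. The PU.1 motif GAGGAA was in 5 of 9 and in 27.6% of all promoters, and the RUNX motif TGTGGT in 3 of 9 and in 17.3% of all. The upstream stretches with the C/EBP letters are printed because they occur both in genes that followed the common order, Ngp and Np4, and in Lcn2, which did not. Capitals mark the motif, read 5′ to 3′ on the gene's own strand, and a match is a description of letters, not of a bound site. They lie at chr3:36081939-36081996 on the minus strand (Lcn2), chr8:119272401-119272458 and chr8:119272528-119272585 on the plus strand (Ngp, the later one matching on the opposite strand) and chr16:77199724-77199781 on the minus strand (Np4) of GRCr8.
Lcn2: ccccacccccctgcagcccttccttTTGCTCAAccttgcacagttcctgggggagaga
Ngp, distal: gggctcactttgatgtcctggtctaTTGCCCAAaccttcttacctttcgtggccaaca
Ngp, proximal: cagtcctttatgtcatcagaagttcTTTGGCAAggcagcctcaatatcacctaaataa
Np4: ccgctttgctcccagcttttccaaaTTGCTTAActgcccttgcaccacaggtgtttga
The motif begins 191 bases before the start of Lcn2, 179 and 52 before that of Ngp and 114 before that of Np4. The promoters of Camp, Ctsg, Mpo, Prtn3, Cebpe and Ltf did not hold these letters, though Camp, Ctsg, Mpo, Prtn3 and Cebpe shared the order of libraries with Ngp and Np4.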

How the data were processed

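The authors deposited counts, whole numbers of reads per Ensembl rat gene in 6 libraries, without normalization. The submitters' processing notes list FastQC, Trimmomatic, HISAT2, featureCounts, DESeq2 and the mouse build mm10, while the identifiers are of rat, and the build behind the table's coordinates is not given in the sources used here. Groups and replicate numbers were taken from the sample titles. Counts were normalized (TMM), filtered with filterByExpr (minimum count 10) and tested with edgeR 4.0.16 in R 4.3.3 (quasi-likelihood test, Benjamini-Hochberg adjustment over 15537 genes), with PBS replicates 2 and 3 summed. A gene was called when its adjusted p was under 0.05 and its log2 fold change was above 1 or below -1. For log2 CPM the prior count was 2. Two-sided exact permutation tests compared log2 CPM of 5 samples, and intervals came from scipy 1.17.1. The members and the lists of granule, neutrophil, myeloid, erythroid, B precursor, megakaryocyte, eosinophil, macrophage, proliferation, osteoclast and disc genes were chosen with earlier results of these data known. From each list the most abundant gene was named, with up to 4 called genes or otherwise the 2 with the smallest p, and further list genes were named after their values were seen. The values of 1 list gene are not reported here. Alternatives were 6 libraries kept apart, a replicate block, DESeq2 1.42.0, limma-voom 3.58.1, other scalings and filters, adjusted p alone, and libraries left out. The figures were drawn with matplotlib 3.10.9.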

Additional observations from a re-analysis of the deposited data

How the results depend on the processing

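The log2 fold changes of the 9 tested members kept their direction, and the member stayed uncalled, in 142 of 144 combinations of member and alternative. Lcn2 turned from -1.22 to 1.37 when PBS replicates 2 and 3 were both left out, PBS replicate 1 then being assumed to vary like the other group. With the replicate number as a replicate block and all 6 libraries kept, Lcn2 was called (-1.51, adjusted p = 0.0316, within a range of 0.0316 to 0.743 over its alternatives), so that 1 member was called in place of 0, 600 genes were called in the whole table in place of 452, and 8 of the neutrophil and myeloid list genes in place of 5, while Gusb and Chad lost their calls (edgeR adjusted p = 0.0709 and 0.0504). Libraries with the same number had correlations of -0.325, -0.282 and -0.0754 between their deviations from the group means, so the numbers give no sign of pairing. With all 6 libraries kept apart, 1328 genes were called, 17 of them in those lists, and with DESeq2 1411 and 20. Without a filter 10 of the list genes were called. With PBS replicates 2 and 3 both left out, 3 genes were called in the table and 0 in the lists. Over the libraries left out one by one, the table had 0 to 449 calls, the members 0 and the lists 0 to 6. With the median of log2 differences, the log2 balance of early to late genes moved from -7.73 to -2.82 in PBS replicate 2. It moved from -6.94 to -2.15 in PBS replicate 3 and from -0.86 to -1.29 in PBS replicate 1. In the labelled replicates it moved to -1.52, -1.99 and -1.96. Without Mpo and Ngp it was -0.61, -8.3 and -7.46 in PBS and -1.13 in labelled replicate 1. Labelled replicate 1 thus had the highest balance in the main setting, and PBS replicate 1 had it in both of these alternatives. Without Lcn2, an alternative chosen after seeing the data, the balance was -1.72 and -0.98 in PBS replicates 2 and 3. Labelled replicate 1 was highest there again. The causes of these shifts were not tested. Depth limits Prtn3 and the early genes in PBS replicates 2 and 3, where single genes had 1 to 13 reads. Ltf had 0 reads also in labelled replicates 2 and 3, where Ngp had 6328 and 7894 reads. The reason for the lack of Ltf reads was not tested.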

Other observations

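Of 15 tested monocyte and macrophage genes 0 were called higher and 3 lower in the labelled libraries, and the median log2 fold change was -0.75, against 0.05 over all genes tested. Cd14, the co-receptor for bacterial lipopolysaccharide, had 151, 134 and 134 CPM in PBS and 38.1, 36.1 and 41.4 CPM in the labelled libraries, a log2 fold change of -1.89 (standard error 0.12, edgeR adjusted p = 0.0119). Cd68 had a log2 fold change of -1.97 (standard error 0.22, edgeR adjusted p = 0.0231), and Msr1, a scavenger receptor, of -1.87 (standard error 0.31, edgeR adjusted p = 0.0463). Mrc1, the mannose receptor and the most abundant of the list, had 215, 180 and 179 CPM in PBS and 87.6, 123 and 95.9 CPM in the labelled libraries (log2 fold change -0.96, edgeR adjusted p = 0.0616). The summed level of the list was 1526, 1031 and 1043 CPM in PBS and 633, 916 and 758 CPM in the labelled libraries. Without labelled replicate 2 or 3 none of these 3 was called, with adjusted p up to 0.130 for Cd14, 0.140 for Cd68 and 0.162 for Msr1, and Cd68 and Msr1 also lost the call without PBS replicate 1 and without labelled replicate 1, and Msr1 with library totals alone.

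Among the osteoclast genes, Dcstamp, which cells need to fuse into osteoclasts, had 34.7, 28.3 and 28.7 CPM in PBS and 3.35, 3.62 and 2.45 CPM in the labelled libraries (log2 fold change -3.34, standard error 0.22, edgeR adjusted p = 0.0119). Ctsk, the collagen-degrading cathepsin K, had 4085, 2699 and 2687 CPM in PBS and 573, 485 and 286 CPM in the labelled libraries (log2 fold change -2.93, standard error 0.38, edgeR adjusted p = 0.0306). Atp6v0d2 and Acp5 had log2 fold changes of -2.72 and -2.02 (edgeR adjusted p = 0.0444 and 0.0381). Without labelled replicate 2 or 3 none of these was called, with adjusted p up to 0.127 for Dcstamp, 0.136 for Ctsk, 0.151 for Atp6v0d2 and 0.163 for Acp5, and Dcstamp alone of these 4 kept its call without PBS replicate 1 and without labelled replicate 1. Atp6v0d2 was not called by limma-voom. Of 9 tested megakaryocyte genes 0 were called by edgeR (4 at an unadjusted p under 0.05, 3 by DESeq2 and 0 by limma-voom), the median log2 fold change was 2.14, and Gp1bb had 0 reads. PBS replicate 1 exceeded the mean of the PBS pair in 9 of the 9 tested genes, and labelled replicate 1 was the lowest labelled library in 8. Itgb3, the most abundant of them and an osteoclast integrin too, had 147, 73.1 and 70.9 CPM in PBS and 36.6, 50.4 and 32.3 CPM in the labelled libraries (log2 fold change -1.47, edgeR adjusted p = 0.0856). Gp1ba, the platelet receptor for von Willebrand factor, had 0.513, 0.579 and 0.366 CPM in PBS and 0.881, 3.50 and 4.16 CPM in the labelled libraries. In the disc list 2 of 12 genes were called higher and 0 lower, and the median log2 fold change was 0.57. Cilp, a cartilage matrix protein, had a log2 fold change of 2.69 (standard error 0.28, edgeR adjusted p = 0.0221) and Chad, chondroadherin, of 2.93 (standard error 0.48, edgeR adjusted p = 0.0454), and both lost the call without PBS replicate 1 and without any single labelled library. Chad also lost its call with the replicate block and all 6 libraries kept (edgeR adjusted p = 0.0504).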
